A study of Mus musculus with 16 samples.

Results

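The quantity described here is the gap between the aortic responses to a pair of progestins. For each gene it is the log2 level under medroxyprogesterone acetate (MPA) minus that under its placebo, less the log2 level under norethisterone acetate (NET-A) minus that under its own placebo. A value above 0 means that the MPA response was the higher one. All 16 of the 16 arrays of the series entered it, 4 in each of 4 groups, and 15238 of the 28476 genes on the array were tested, those whose probe was well above background on at least 4 of the 8 arrays of each experiment. Levels under MPA were never set directly against levels under NET-A, because the experiments were run on separate slides and read by different software versions.

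All 4 groups were aortas of female C57BL/6 mice that lack apolipoprotein E, a strain that develops atherosclerosis. Ovaries were removed at 4 to 5 weeks of age and a pellet was placed under the skin 2 weeks later. The pellet released MPA, NET-A or no hormone, and each progestin had a placebo group of its own, marked in the sample titles by the letters M and N. All mice ate a high-fat Western-type diet, and the aorta was taken after 78 to 90 days of a 90-day pellet, from its arch down to the renal branches. Every group thus shared the ApoE deficiency, the loss of the ovaries and the diet. No group here carried its own ovaries, and the pellet doses are not given in the labels, so the progestins could not be matched by dose. The labels do not state that each sample came from a separate mouse, so each p-value reflects how much the samples varied, which may be technical.

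Progestins are synthetic ligands of the progesterone receptor, used in contraception and in hormone therapy after menopause. MPA is derived from hydroxyprogesterone and also binds the glucocorticoid receptor, on which it acts as a partial agonist, while NET-A is derived from nortestosterone and has weak androgenic activity with little affinity for the glucocorticoid receptor. Both receptors are transcription factors that, once bound, sit on short palindromic DNA elements near their target genes. Smooth muscle, endothelium, fibroblasts, macrophages and the fat around the vessel all carry steroid receptors, and in a piece of whole aorta their transcripts are measured together.

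Between 46.3% and 60.6% of spots were well above background on the arrays of the MPA experiment and between 62.3% and 78.5% on those of the NET-A experiment. MPA replicate 2 had the lowest share and the lowest overall signal. No spot was saturated, and arrays of 1 group correlated by 0.954 to 0.988 over genes. The smooth muscle markers Acta2, Myh11, Tagln and Cnn1, the endothelial markers Pecam1 and Cdh5 and the fibroblast markers Dcn, Lum and Pdgfra were well above background on 16 of 16 arrays. So were brown fat, white fat, red cell, platelet, neutrophil, macrophage, T cell, B cell and mast cell markers, and Acta1 of skeletal muscle. Ckm and Tnnt3 of skeletal muscle reached it on 10 arrays each, Msln and Upk3b of mesothelium on 14 and 9, and Th on 0. Each of the 5 slides held treated and placebo arrays, but on the MPA slides the treated arrays took positions 1 and 2 and the placebo arrays positions 3 and 4, so that position and treatment cannot be told apart there.

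Across all genes Pearson's r between the responses was 0.04 and Spearman's rho -0.00, but after normexp background correction r was -0.43. With the processed signals 50.9% of genes had responses of opposite sign. These are descriptions across genes, which are not independent replicates. By limma with Benjamini-Hochberg adjustment over all genes tested, 0 genes (0%) passed an adjusted p of 0.05 for the difference, and the smallest adjusted p was 0.175. At an unadjusted p under 0.05, 682 genes (4.48%) had a higher MPA response and 371 (2.43%) a lower one, 1053 in all, where the threshold alone would give 761.9. The difference was above 0 in 51.4% of all genes. For genes whose probe matched a RefSeq transcript the shares were 46.9% above 0, 2.73% higher and 2.78% lower. Of those in the highest of 4 bins of level 40.0% lay above 0. Every list count below is to be read beside both sets of shares. Of the separate responses, limma called 3 genes (0.0197%) under MPA and 0 (0%) under NET-A, where 328 genes (2.15%) were higher and 476 (3.12%) lower at an unadjusted p under 0.05, against 738 (4.84%) and 578 (3.79%) under MPA. The 3, named after their values were seen, were lower under MPA: AK052744 by a log2 response of -3.25 ± 0.35, the probe A_52_P13337 by -1.53 ± 0.22 and Jpt2 by -0.84 ± 0.13. Their differences were -2.98 ± 0.41, -1.47 ± 0.28 and -0.45 ± 0.18, and the first 2 rest on fewer than 16 values. The split between higher and lower depended on the scaling: 64.8% of the 1053 were higher with each array scaled to its 75th percentile, 54.6% after quantile normalization within each experiment, 53.7% in the authors' value table and 21.4% with arrays scaled to their median. Median scaling moved the difference of the median gene from 0.01 to -0.16, and single genes are given here relative to the 75th percentile.

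The precision set by 4 arrays per group was modest. The median standard error of a difference was 0.29, so its 95% interval reached 0.61 to either side, a ratio of 1.52. Over genes the differences had a standard deviation of 0.44, and 626 genes (4.11%) differed by more than 1 on the log2 scale.

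**Figure D1:**
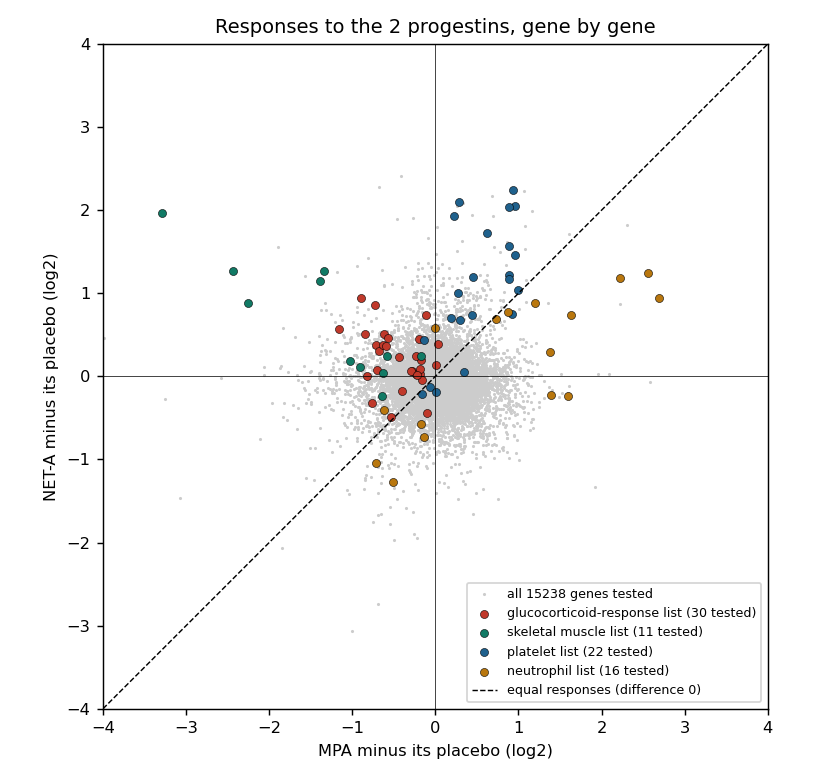
Each point is 1 of the 15238 genes tested, placed by its response to MPA (x axis) and to NET-A (y axis), both as treated minus own placebo on the log2 scale; the dashed line marks equal responses and colours mark 4 gene lists. Glucocorticoid-response genes gather in the upper left, skeletal muscle genes reach farthest to the left, and platelet and neutrophil genes lie on opposite sides of the line.

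Transcripts known to be induced by glucocorticoids had lower responses to MPA than to NET-A. The list holds 32 genes, of which 31 are on the array and 30 were tested, and in 29 of them the difference was below 0, against 48.6% of all genes tested. Of the 30, 10 had an unadjusted p under 0.05 with a lower MPA response, against 2.43% of all genes. With a higher one there were 0, against 4.48%. The median difference was -0.57, against 0.01 over all genes. It was made of a median of -0.42 under MPA and of 0.21 under NET-A, and 23 of the 30 genes had responses of opposite sign. Under MPA 28 of the 30 lay below 0, against 49.4% of all genes, and under NET-A 25 lay above 0, against 47.7%. No member passed after adjustment.

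Sgk1, a kinase that regulates sodium transport and cell survival, had the smallest p of the list. Its log2 levels were 4.62, 4.27, 5.07 and 4.74 under MPA against 5.33, 5.79, 5.30 and 5.66 under its placebo, and 3.32, 3.81, 4.22 and 4.12 under NET-A against 3.50, 3.46, 2.92 and 3.55 under its own. Every MPA array lay below every placebo array of that experiment, while 3 of the NET-A arrays lay above all of theirs and NET-A replicate 1 lay among them. The difference was -1.35 ± 0.31 (SE, n = 4 per group; limma adjusted p = 0.268), from an MPA response of -0.84 and a NET-A response of 0.51. Its probe lies at chromosome 10, 21719390 to 21719449 (mm9).

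Errfi1, a feedback inhibitor of the EGF receptor, measured 2.57, 2.43, 3.33 and 3.06 under MPA against 3.47, 3.90, 3.20 and 3.74, and 3.03, 3.60, 4.36 and 3.64 under NET-A against 3.18, 2.69, 2.27 and 3.06. The MPA groups overlapped only where MPA replicate 3 met placebo replicate 3, and the NET-A groups only through NET-A replicate 1, which lay below 2 placebo arrays. The difference was -1.59 ± 0.40 (limma adjusted p = 0.329). Ddit4, an inhibitor of mTOR signalling, measured 2.38, 2.10, 2.68 and 2.36 under MPA against 3.06, 2.92, 2.35 and 3.69, and 3.20, 3.31, 3.08 and 3.20 under NET-A against 2.83, 2.62, 2.53 and 2.75. All 4 NET-A arrays were above all 4 of their placebo arrays, whereas MPA and its placebo overlapped through placebo replicate 3. The difference was -1.13 ± 0.30 (limma adjusted p = 0.416).

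The other members under the unadjusted threshold, named here after their values were seen, were Map3k6 (-0.98 ± 0.31), a stress kinase; Klf15 (-1.04 ± 0.40) and Klf9 (-0.65 ± 0.26), Krüppel-like transcription factors; Tsc22d3 (-1.74 ± 0.67), the anti-inflammatory leucine zipper also called Gilz; Gadd45g (-0.95 ± 0.38), a stress sensor; Dusp1 (-1.10 ± 0.46, with 3 MPA values after an outlier spot was left out), a phosphatase of MAP kinases; and Nfkbia (-0.67 ± 0.31), the inhibitor of NF-kappaB. Further probes gave the same sign for Tsc22d3 (-1.71 and -1.66), Map3k6 (-0.87), Klf15 (-0.73) and Klf9 (-1.09). Fkbp5, the cochaperone that dampens glucocorticoid receptor activity, gave the lowest value of the list at -1.84 ± 0.89. Its placebo arrays of the NET-A experiment measured -3.02, -3.17, -2.95 and -0.87, and its NET-A arrays -3.52, -0.91, -0.37 and -1.42. NET-A replicate 1 was the lowest of these 8 arrays and placebo replicate 4 lay above all but NET-A replicate 3, so the groups overlapped, and its 2 other probes gave -2.46 and -0.94. Glul, glutamine synthetase, was the only tested member with a difference above 0, at 0.34, and Hif3a (-0.04), Bcl6 (-0.12) and Sesn1 (-0.13) lay near it.

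**Figure D2:**
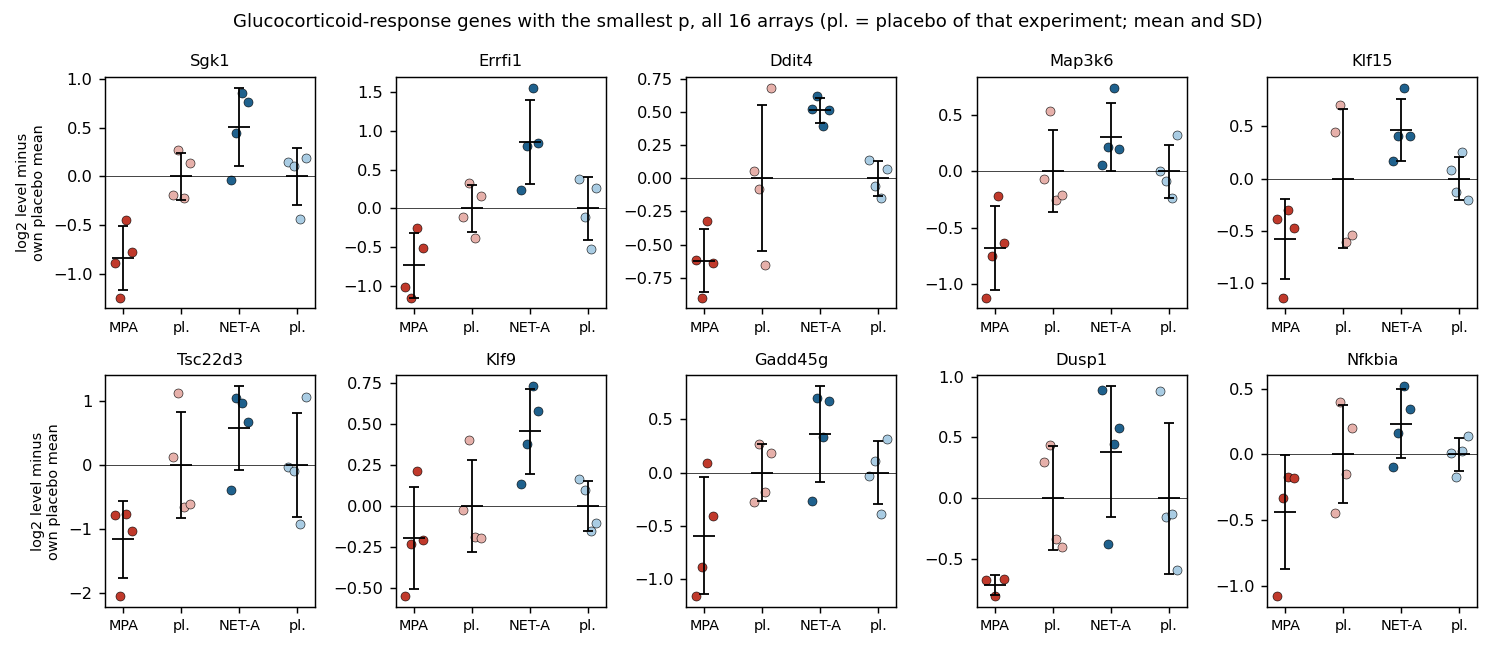
Log2 levels of the 10 glucocorticoid-response genes under the unadjusted threshold on all 16 arrays, each shown minus the mean of its own placebo group (y axis), with bars for the mean and SD of each group. MPA means lie below 0 and NET-A means above 0 in every panel, by -0.84 and 0.51 for Sgk1.

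The pattern was seen in both parts of each experiment but was uneven. The MPA response of the list had a median of -0.67 on slide 1 and -0.21 on slide 2, and the NET-A response 0.16 on slides 3 and 4 and 0.45 on slide 5. The median level of the list, each gene taken relative to its placebo mean, was -0.46, -0.65, -0.23 and -0.41 on the MPA arrays and -0.04, 0.23, -0.31 and 0.06 on their placebo arrays. It was -0.00, 0.41, 0.36 and 0.16 on the NET-A arrays and 0.07, 0.01, -0.23 and 0.19 on theirs. MPA and its placebo overlapped only through placebo replicate 3, and in the NET-A experiment replicate 1 lay among the placebo arrays and placebo replicate 4 just above NET-A replicate 4. Leaving out any 1 array kept the median difference between -0.71 and -0.47, and across the 31 alternatives tried it ran from -0.96 to -0.40. The -0.96 came after normexp correction, which moved all genes by level. Over all genes tested that correction gave a median of 0.99 in the lowest of 4 bins of level and -0.51 in the highest. The fat and brown fat lists, whose tissues also express several of these genes, had median differences of -0.09 and 0.28, and their part in the result was not tested. With slides 3 and 4 of the NET-A experiment alone these medians were 0.55 and 0.92, and with slide 5 alone -0.56 and -0.39. In whole tissue, fewer cells of a type and less RNA per cell cannot be told apart.

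The promoters of the list were searched for the palindromic element bound by the glucocorticoid, progesterone and mineralocorticoid receptors, written as GNACANNNTGTNC, where N is any base. The element reads the same on both strands. RefSeq promoters (GRCm38.p6) were found for 27 of the 30 members, and the 250 bases before the start of 4 of them (14.8%) held a match, against 119 of 27025 genes (0.440%) in all. The list was assembled from genes known to be glucocorticoid-induced, so the share describes the list and says nothing of binding in these aortas. The 4 windows are shown because their genes carry the difference described above in unequal measure, with the match in capitals and each on the plus strand.

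Sgk1: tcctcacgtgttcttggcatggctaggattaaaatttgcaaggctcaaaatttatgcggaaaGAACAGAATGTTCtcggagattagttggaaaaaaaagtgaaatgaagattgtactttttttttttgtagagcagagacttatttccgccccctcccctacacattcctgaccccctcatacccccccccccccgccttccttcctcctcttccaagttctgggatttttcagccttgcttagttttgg
Map3k6: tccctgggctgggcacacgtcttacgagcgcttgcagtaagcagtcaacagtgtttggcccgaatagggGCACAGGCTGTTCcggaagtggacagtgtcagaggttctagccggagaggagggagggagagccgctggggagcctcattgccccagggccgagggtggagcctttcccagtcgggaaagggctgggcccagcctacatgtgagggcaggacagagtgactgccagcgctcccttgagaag
Mt1: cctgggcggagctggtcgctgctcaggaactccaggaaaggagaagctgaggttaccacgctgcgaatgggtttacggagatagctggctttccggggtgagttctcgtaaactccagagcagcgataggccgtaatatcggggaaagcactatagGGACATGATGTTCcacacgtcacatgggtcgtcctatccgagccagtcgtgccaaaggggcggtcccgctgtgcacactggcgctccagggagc
Txnip: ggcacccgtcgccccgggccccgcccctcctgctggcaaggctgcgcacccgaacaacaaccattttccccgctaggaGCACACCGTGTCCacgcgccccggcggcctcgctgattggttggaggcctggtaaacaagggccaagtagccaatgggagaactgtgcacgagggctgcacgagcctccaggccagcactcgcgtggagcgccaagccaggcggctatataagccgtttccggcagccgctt

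The Sgk1 window, 1 of 6 listed for that gene, is chr10:21993640-21993889, and its match begins at position -188 from the start. Map3k6 (chr4:133240568-133240817) has its match at position -181, the metallothionein Mt1 (chr8:94178839-94179088) at -94 and Txnip (chr3:96557707-96557956), an inhibitor of thioredoxin, at -172. The differences were -1.35 for Sgk1, -0.98 for Map3k6, -0.48 ± 0.33 for Txnip and -0.34 ± 0.48 for Mt1. The 95% interval of Mt1 ran from -1.37 to 0.68 and that of Txnip from -1.19 to 0.23, so that both included 0.

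For the receptors themselves, the 95% interval of the difference included 0 in all but 1 of those given here. The progesterone receptor Pgr gave 0.12 ± 0.44 (95% interval -0.83 to 1.06), a value that was -0.05 under each of median scaling, quantile normalization and the authors' table. The glucocorticoid receptor Nr3c1 gave -0.30 ± 0.25 (-0.84 to 0.23), with 3 other probes from -0.28 to 0.80, and the estrogen receptor Esr1 -0.12 ± 0.29 (-0.74 to 0.50). Esr2 stayed below the detection mark on all 16 arrays. The exception was the mineralocorticoid receptor, Nr3c2, which binds aldosterone and glucocorticoids.

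Nr3c2 measured -3.31, -1.53, -2.32 and -2.31 under MPA and -3.37, -3.95, -3.39 and -3.37 under its placebo, and -3.33, -3.71, -3.74 and -3.42 under NET-A against -2.99, -3.39, -2.99 and -3.57. Every MPA array lay above its placebo arrays, MPA replicate 1 by little, while the NET-A groups overlapped. The difference was 1.47 ± 0.40 (limma adjusted p = 0.428). Its probe was well above background on only 2 of the 4 placebo arrays of the MPA experiment. Among the 16 receptors and coregulators tested, 7 differed above 0, Nr3c2 alone passed the unadjusted threshold and the median was -0.11.

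Genes of steroid metabolism had a median difference of -0.13 over 15 tested of 26 on the array, with 6 above 0. Akr1c14, a hydroxysteroid dehydrogenase that reduces dihydrotestosterone and dihydroprogesterone, measured 1.41, 1.15, 1.17 and 1.45 under MPA against 1.90, 1.45, 1.43 and 1.03, and 0.26, 0.31, 1.45 and -0.20 under NET-A against -0.61, -0.56, -0.31 and -0.78. All NET-A arrays lay above all their placebo arrays and the MPA groups overlapped. The difference was -1.17 ± 0.39 (limma adjusted p = 0.549). Sult1a1, a sulfotransferase, gave -0.59 and Por, the electron donor of microsomal cytochrome P450 enzymes, -0.62, neither under the unadjusted threshold.

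The androgen and estrogen lists were closer to all genes. Of 22 androgen-response genes tested, 8 differed above 0, against 51.4% of all genes, and the median was -0.21. On the lower side 1 was under the unadjusted threshold, against 2.43% of all genes. That gene was Adamts1, a protease of the matrix proteoglycan versican, with -0.87 ± 0.35: the MPA arrays measured 4.12, 4.10, 4.16 and 4.06, all below the placebo values of 4.64, 5.04, 4.22 and 4.26. The NET-A arrays, at 2.66, 3.14, 3.49 and 3.60, overlapped with placebo values of 3.04, 2.74, 2.15 and 3.20. Pmepa1 gave -0.74 and Igf1 -0.50, neither under the threshold. Of 18 estrogen-response genes, 7 differed above 0, against 51.4% of all genes, 0 were under the threshold and the median was -0.10. Mybl1 (0.47), Ccnd1 (-0.54) and Hspb8 (-0.35) had the smallest p.

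**Figure D3:**
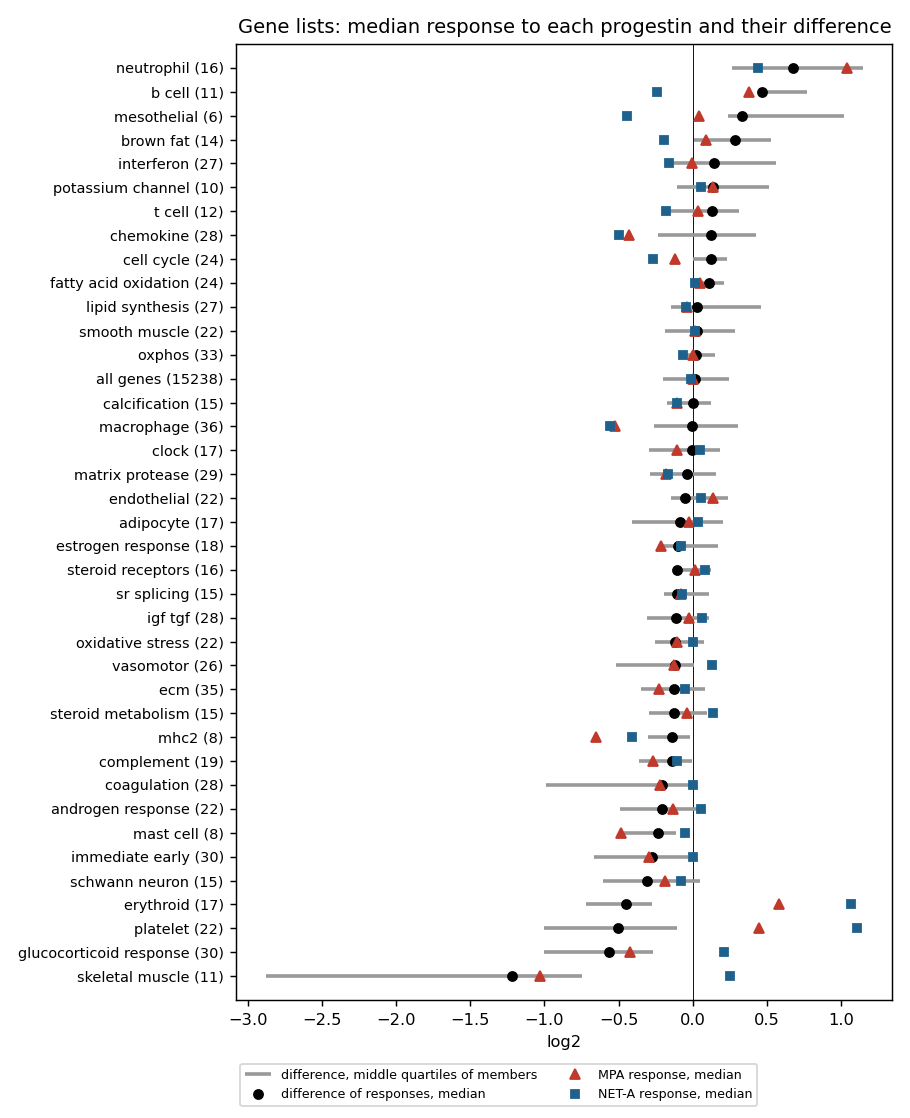
Median over the tested members of each gene list (number in brackets) of the difference between responses (black), of the MPA response (red) and of the NET-A response (blue) on the log2 scale; grey bars span the middle quartiles of the difference. Skeletal muscle (-1.22) and glucocorticoid response (-0.57) lie lowest and neutrophil (0.68) highest, while macrophage lies at -0.00, with medians of -0.53 and -0.56 for the responses.

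Transcripts of circulating cells differed by cell type. Neutrophil genes responded more to MPA: 14 of 16 tested differed above 0, against 51.4% of all genes, 2 were under the unadjusted threshold on the higher side, where 4.48% of all genes were, and the median difference was 0.68, from 1.04 under MPA and 0.44 under NET-A. Under MPA 10 of the 16 lay above 0, against 50.6% of all genes. The members under it were Pglyrp1, a granule protein that binds bacterial walls, at 1.09 ± 0.47, and Cxcr2, the chemokine receptor that draws neutrophils into tissue, at 1.84 ± 0.82. Csf3r, the receptor for G-CSF, gave 1.62 ± 0.78. Cxcr2 was well above background on 4 MPA arrays, 1 placebo array of that experiment and 2 arrays in each group of the other, so it entered the test of that experiment through the group where it was high, and its size is not well measured. The list median was 0.32 without placebo replicate 4 of the NET-A experiment and 1.07 without placebo replicate 4 of the MPA experiment.

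The calprotectin subunits S100a8 and S100a9, the most abundant proteins of the neutrophil cytosol, showed how the slides entered. S100a8 measured 1.00, 0.45, 2.74 and 2.32 under MPA against -1.97, -2.41, 0.25 and -0.13 under placebo, so that replicates 1 and 2, from slide 1, were lower than 3 and 4, from slide 2, in both groups. Under NET-A it measured 1.54, 0.20, -0.04 and 1.22 against -0.60, -0.14, -0.31 and 0.21. MPA and placebo did not overlap and the NET-A groups did. The difference was 1.75 ± 0.85 for S100a8 and 1.32 ± 0.68 for S100a9, the latter with responses of 2.56 and 1.25. The list's median MPA response was 1.74 on slide 1 and 0.75 on slide 2. Mmp9, a gelatinase, and Fpr1, the receptor for formyl peptides, were not tested for the difference. Both were well above background on 3 of 4 MPA arrays and on 0 of 4 placebo arrays of that experiment. This puts them at least 2.13-fold and 1.81-fold higher under MPA than under placebo. The MPA mean took in the array that was not well above background at its measured value, so these limits are approximate. The limit was 1.86-fold for Mmp9 without MPA replicate 4 and 1.75-fold for Fpr1 without MPA replicate 2.

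Platelet genes went the other way. Of 22 tested, 5 differed above 0, against 51.4% of all genes. The median difference was -0.51, from responses of 0.45 to MPA and 1.11 to NET-A. On the lower side 2.43% of all genes were under the unadjusted threshold. Only Itga2b, the platelet integrin that binds fibrinogen, was under the unadjusted threshold: it measured -1.46, -1.85, -0.96 and -1.98 under MPA against -2.05, -0.53, -2.14 and -2.42, and -2.38, -1.23, -0.57 and -0.78 under NET-A against -3.24, -3.96, -3.27 and -2.23. The NET-A arrays 2, 3 and 4 stood above all their placebo arrays, and MPA and placebo were mixed. The difference was -1.71 ± 0.65 (limma adjusted p = 0.648). Ppbp, a platelet chemokine precursor, gave -1.31 ± 0.63 and Treml1, an alpha-granule receptor, -1.09 ± 0.53, both higher under each progestin than under placebo. After normexp background correction the median of this list was 0.00.

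Red cell genes had 3 of 17 above 0, against 51.4% of all genes, 0 under the unadjusted threshold and a median of -0.45 from responses of 0.58 and 1.07. That median was -0.18 without placebo replicate 1 of the MPA experiment and -0.68 without NET-A replicate 1, and it was -0.87 with slide 1 alone and -0.13 with slide 2 alone. The haem enzyme Fech gave -0.92, the blood group antigen Rhd -1.49 ± 0.73 and the haemoglobin chaperone Ahsp -1.16. The adult globins did not share this: Hba-a1 gave 0.48 and Hbb-bt 0.56. B cell genes gave 0.46 with 10 of 11 above 0, against 51.4% of all genes. The 1 member under the threshold was Cd22, an inhibitory receptor of B cells, at 1.12 ± 0.46, on the side where 4.48% of all genes were. On the MPA slides the median response of the B cell genes was 0.81 on slide 1 and -0.20 on slide 2. Leaving out single arrays moved their median difference between 0.12 and 0.88. T cell genes gave 0.13, with 8 of 12 above 0 and 0 under the threshold, but the median difference was 0.81 with slide 1 alone, -0.62 with slide 2 alone, -0.34 with slide 5 alone and -0.18 without MPA replicate 1. Mast cell genes gave -0.23, with 1 of 8 above 0, and 0.10 without NET-A replicate 2.

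Macrophage genes had a median difference near 0 in the main setting. Of 36 genes, 35 had a response to MPA below 0, and 35 a response to NET-A below 0, against 52.3% of all genes, and the medians of the responses were -0.53 and -0.56. The median of the differences within genes was -0.00, with 18 genes on each side. It was -0.31 without placebo replicate 4 of the NET-A experiment and 0.11 without placebo replicate 4 of the MPA experiment. After normexp correction, which lowered bright genes as a whole, it was -0.27. The middle quartiles of the difference ran from -0.26 to 0.30. Cd68, a lysosomal glycoprotein, gave 0.12 ± 0.46 and Adgre1, an adhesion receptor of macrophages, 0.37 ± 0.42, and the error leaves room for differences of about that size. Cx3cr1, the fractalkine receptor of patrolling monocytes, was the 1 member under the unadjusted threshold, at 1.02 ± 0.41 (limma adjusted p = 0.654). It measured -1.97, -2.09, -2.47 and -2.25 under MPA against -3.20, -2.77, -2.26 and -1.74, and -3.02, -3.69, -2.71 and -2.70 under NET-A against -2.26, -2.04, -2.75 and -2.19. Treated and placebo arrays overlapped in both experiments.

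Chemokine and cytokine genes were equally balanced, with 16 of 28 above 0, 0 under the threshold and a median of 0.12, from -0.43 and -0.50, which ran from -0.11 to 0.44 when single arrays were left out. Ccl11 (eotaxin) gave -0.82, Csf1, the growth factor of macrophages, -0.53 and Il1b 1.42. Class II antigen presentation genes had a median of -0.14 over 8 genes with all responses negative for both progestins, and of 0.29 without placebo replicate 4 of the MPA experiment. The complement list gave -0.14, with 5 of 19 above 0, against 51.4% of all genes. One member, C7 of the membrane attack complex, was lower in its MPA response by far: -2.17 ± 0.69 (limma adjusted p = 0.549). C7 measured -2.26, -1.62, -0.69 and -1.60 under NET-A, all above its placebo at -4.02, -4.45, -2.74 and -2.56, and -1.79, -3.83, -1.75 and -2.13 under MPA against -2.04, -1.81, -2.47 and -2.12. After normexp correction its value was -0.07.

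Of the interferon-response genes 18 of 27 differed above 0, against 51.4% of all genes, and 4 were under the unadjusted threshold on that side, against 4.48%, and 0 on the other. Their median of 0.15 was not stable in sign: it was -0.02 under median scaling, -0.03 after normexp correction and -0.13 with slide 5 alone. Ifit2, which blocks translation of viral RNA, gave 1.67 ± 0.49 and Mx2, a dynamin-like antiviral GTPase, 1.09 ± 0.30 (limma adjusted p = 0.431). Mx2 measured -2.41, -2.10, -2.44 and -2.55 under MPA against -3.24, -2.46, -2.45 and -2.44, and -1.73, -2.57, -2.49 and -2.19 under NET-A against -1.12, -1.52, -1.59 and -1.46. The NET-A arrays were all below their placebo arrays, and the MPA arrays differed from placebo chiefly in placebo replicate 1. Trim30a (0.59) and Oas1a (0.91) likewise had MPA responses near 0, at 0.03 and 0.01, and negative NET-A responses.

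Coagulation and fibrinolysis genes gave a median of -0.20, with 10 of 28 above 0, against 51.4% of all genes, and 4 under the unadjusted threshold, all lower, against 2.43%. Without placebo replicate 3 of the NET-A experiment the median was -0.13, and it was -0.06 over members detected on all 16 arrays. The 4 under the threshold included Fgb, the beta chain of fibrinogen (-1.77 ± 0.59), Serpind1, heparin cofactor (-1.58 ± 0.59), and F5, the cofactor of prothrombinase (-1.76 ± 0.69). Fgb measured -0.68, -0.11, -0.56 and -1.10 under MPA against 0.76, -0.00, 1.25 and -0.70, and -3.55, -4.17, -3.47 and -3.01 under NET-A against -5.09, -4.85, -4.10 and -3.49. In the MPA experiment only placebo replicate 4 lay among the MPA arrays, and in the NET-A experiment placebo replicates 3 and 4 lay above NET-A replicate 2. F5, Serpind1 and Fgb were well above background on only 2 placebo arrays of the NET-A experiment, and Serpind1 and F5 changed sign after normexp correction (0.55 and 0.52). Thbs1, thrombospondin, and Plau, urokinase, lay on the other side at 0.84 and 1.05, neither under the threshold.

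Lists of vessel wall genes had medians between -0.13 and 0.14 in the main setting. Contractile smooth muscle genes had a median of 0.03, with 11 of 22 above 0 and 0 under the threshold, among them Acta2 at 0.20 ± 0.28 and Myh11 at -0.01 ± 0.31. Endothelial genes had a median of -0.05, with 10 of 22 above 0 and 0 under the threshold. Collagens, elastin and other matrix genes gave -0.13, with 13 of 35 above 0. Fmod, the small proteoglycan fibromodulin, was the 1 member under the threshold at -0.91 ± 0.37, and Col1a1 gave -0.01. Matrix proteases and their inhibitors gave -0.04 with 0 of 29 under the threshold, and potassium channels 0.14 with 0 of 10. After normexp correction the medians lay farther from 0. They were -0.42 for contractile, -0.27 for endothelial, -0.53 for matrix and -0.36 for matrix protease genes, and 0.30 for potassium channels. That correction moved all genes by level, to a median of -0.51 in the highest of 4 bins and 0.99 in the lowest. The lists were not matched for level.

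Among 26 vasomotor genes, 7 differed above 0, against 51.4% of all genes, and the median was -0.12. Gucy1a1, the alpha subunit of the nitric oxide receptor, measured 3.54, 3.72, 4.03 and 3.41 under MPA, all above the placebo values of 2.67, 2.95, 2.76 and 2.53, and 3.40, 2.57, 3.16 and 3.12 under NET-A against 2.91, 3.27, 3.59 and 2.70. The difference was 1.00 ± 0.30 (limma adjusted p = 0.535), with 2 further probes at -0.42 and 1.33. Agt, the precursor of angiotensin, gave -1.34 ± 0.51 with every MPA array below its placebo arrays, and Avpr1a, a vasopressin receptor, -1.14 ± 0.47; both changed sign after normexp correction (0.45 and 0.91). In the growth factor list Tgfbr1 gave -0.71 and Tgfbr3 0.58, the 2 of 28 under the threshold, near the 6.91% of all genes. In the calcification list Ahsg, fetuin, an inhibitor of mineral deposition made by the liver, gave -1.48 ± 0.44 and Alpl, tissue-nonspecific alkaline phosphatase, -1.15 ± 0.48, while the median of its 15 genes was -0.00. Ahsg measured 2.83, 2.93, 2.84 and 2.34 under MPA, all below 3.90, 3.49, 4.32 and 3.29, and -0.07, -0.82, 0.81 and -0.20 under NET-A, overlapping -0.54, -0.61, -1.02 and 0.02.

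Skeletal muscle genes showed the lowest list median, -1.22 over 11 tested of 20 on the array. Of the 11, 0 differed above 0, against 51.4% of all genes, and 5 were under the unadjusted threshold on the lower side, against 2.43%. Muscle fibres are no part of the aortic wall but lie beside the vessel. Tnnc2, the calcium-binding troponin of fast fibres, measured -3.10, -2.09, -2.39 and -2.21 under MPA and -2.23, 0.00, 4.29 and -2.13 under its placebo, and 1.18, 0.55, 1.24 and -0.40 under NET-A against -0.54, -0.08, -0.77 and -1.10. Placebo replicate 3 of the MPA experiment stood far above every other array of that experiment. The difference of -3.70 ± 1.43 became -2.26 without that array, and that of Myh2, a fast myosin, -3.78 instead of -5.25 ± 1.75.

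The median level of the muscle list ran from -1.41 to -0.79 on the MPA arrays, -0.98 to 1.26 on their placebo arrays, 0.08 to 0.75 on the NET-A arrays and -0.14 to 0.10 on theirs. Its median difference without placebo replicate 3 was -1.03. Acta1, skeletal actin, gave -0.67 ± 0.28 and -0.48 without that array. Ckm and the myosin Myh4 were well above background on 0 of 4 MPA arrays and on 3 of 4 placebo arrays. This puts them at least 2.38-fold and 4.07-fold lower under MPA than under placebo, and they were not tested for the difference. The placebo mean took in the array that was not well above background at its measured value, so these limits are approximate. These limits also leaned on placebo replicate 3: without it, a check chosen after seeing the data, they were 1.17-fold and 1.67-fold.

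Other tissue near the aorta gave smaller differences. Brown fat genes had a median of 0.28, with 10 of 14 above 0. However, their median NET-A response was below 0 on slides 3 and 4 and 0.45 on slide 5. Their median level on the NET-A arrays ran from -1.09 to 1.35. Without NET-A replicate 1 their median difference was -0.09, and without NET-A replicate 2 it was 0.70. Dio2, the deiodinase that activates thyroid hormone, was the only member under the unadjusted threshold and lay below 0, at -0.78 ± 0.29. Fat genes shared with white fat gave -0.09, fatty acid oxidation genes 0.11 and respiratory chain genes 0.02, each with 0 under the threshold. With slides 3 and 4 alone these medians were 0.55, 0.58 and 0.49, and with slide 5 alone -0.56, -0.45 and -0.39. Lipid synthesis genes gave 0.03, but 0.21 with slides 3 and 4 alone and -0.28 with slide 5 alone. Of these 27 genes Pnpla3, a lipid droplet acyltransferase, reached 1.87 ± 0.67. It was the 1 under the threshold, on the side where 4.48% of all genes were. Schwann cell and neuron genes gave -0.31, with 4 of 15 above 0 and Cnp, a myelin enzyme, at -0.60 under the threshold, and the 6 mesothelial genes 0.33, all above 0 with 0 under the threshold. Both kept their sign in 31 of 31 alternatives, but the first was -0.14 without placebo replicate 2 and the other 0.10 without placebo replicate 1 of the MPA experiment.

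Immediate early and heat shock genes, which respond to growth factors and to tissue handling within minutes, had a median of -0.28, with 7 of 30 above 0, against 51.4% of all genes, and 4 under the unadjusted threshold, all lower, against 2.43%. Without placebo replicate 3 of the NET-A experiment the median was -0.16. Nr4a1, an orphan nuclear receptor, measured 3.13, 3.56, 2.34 and 2.83 under MPA, all below the placebo values of 4.13, 3.99, 3.70 and 4.00, and 4.53, 4.69, 5.11 and 4.84 under NET-A against 5.34, 4.25, 3.38 and 3.57. The NET-A groups overlapped through placebo replicate 1. The difference was -1.64 ± 0.49 (limma adjusted p = 0.525). Ier3 gave -0.86, the heat shock protein Hspa1a -1.20 and Jun -0.71. Oxidative stress genes gave -0.12, with 0 of 22 under the threshold, and heme oxygenase Hmox1 -1.31 ± 0.63.

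Clock genes gave -0.01 over 17 tested, but Per3, a repressor of the circadian loop, had one of the higher differences of all genes. It measured -1.23, -0.80, -1.53 and -1.03 under MPA against -2.53, -2.28, -1.71 and -1.48, and -3.86, -3.31, -2.97 and -2.85 under NET-A against -2.31, -2.22, -2.71 and -2.76. The NET-A arrays were all below their placebo arrays, and the MPA arrays were above theirs except where replicate 3 met placebo replicate 4. The difference was 1.60 ± 0.37 (limma adjusted p = 0.268). Per1 gave -1.09 and Nr1d1 -0.70, neither under the threshold. The hours at which the aortas were taken are not given in the labels. Cell cycle genes gave 0.12, with 18 of 24 above 0, against 51.4%, and 2 under the threshold on that side, against 4.48%, Ccnb1 (1.13 ± 0.43) and Mcm2 (0.65 ± 0.28). That median was -0.09 without MPA replicate 1, the array that stood apart for Ccnb1, -0.15 with slide 2 alone and -0.04 under median scaling. Splicing factors gave -0.11, with Srsf5 at 0.79 under the threshold.

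Among the genes with all 16 values, the lowest difference by the moderated statistic belonged to Fam107a, an actin-binding protein that glucocorticoids and stress are known to induce and that is not on the glucocorticoid list. It measured -0.04, -0.00, 0.72 and 0.32 under MPA against 1.55, 1.28, 1.26 and 0.67, and -2.01, -0.50, -0.01 and -0.41 under NET-A against -1.90, -2.12, -2.34 and -1.89. All arrays but MPA replicate 3 and placebo replicate 4 in the first experiment, and all but NET-A replicate 1 in the other, parted by treatment, in opposite directions. The difference was -2.27 ± 0.48 (limma adjusted p = 0.268), and without NET-A replicate 1 it was -2.70 with an adjusted p of 0.00792.

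After Fam107a, Sgk1 and Errfi1 came Aldoc, a brain aldolase (-1.44 ± 0.36), Net1, an exchange factor for RhoA (-1.41 ± 0.36), Mlf1 (-1.01 ± 0.26), LOC100044517 (-0.73 ± 0.19), Ddit4, Lurap1l (-0.98 ± 0.26), Tmem179b (-0.60 ± 0.16), Mllt11 (-0.71 ± 0.20) and Angptl7, an angiopoietin-like protein (-1.27 ± 0.35). None passed adjustment. Angptl7 measured -1.27, -1.20, -1.22 and -1.13 under NET-A, all above -2.28, -2.80, -2.30 and -2.84, while the MPA arrays (-0.13, -1.01, -0.65 and -0.55) and their placebo (-1.10, 0.17, -0.93 and -0.82) were mixed. Aldoc was well above background on only 2 MPA arrays and turned to 0.64 after normexp correction. Of the 12 lowest genes, 11 matched a RefSeq transcript.

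All of the 12 highest differences, in contrast, came from probes that match no RefSeq transcript, most of them designed on cDNA clones. Unmatched probes made up 22.2% of the genes tested, 52.6% of those with a higher MPA response at the unadjusted threshold and 11.3% of those with a lower one. The probes of 4 of the clones are shown to let a reader place them, each in the orientation printed on the array.

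AK082026: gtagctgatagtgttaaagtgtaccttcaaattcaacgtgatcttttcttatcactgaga
AK050756: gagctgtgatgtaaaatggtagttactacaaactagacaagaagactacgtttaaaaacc
AK084172: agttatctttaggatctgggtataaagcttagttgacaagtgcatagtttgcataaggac
AK031381: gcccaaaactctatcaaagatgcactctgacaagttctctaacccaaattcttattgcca

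AK082026 lies at chr14:26669265-26669324 on the plus strand, AK050756 at chr6:100198353-100198412 on the minus strand, AK084172 at chr14:52716788-52716847 on the minus strand and AK031381 at chr3:64955877-64955936 on the plus strand, all mm9. AK082026 measured -1.45, -0.80, -0.78 and -1.22 under MPA against -2.26, -1.66, -2.09 and -2.10, and -2.07, -2.61, -1.85 and -2.50 under NET-A against -1.59, -0.84, -1.21 and -1.70. The treated arrays were all above placebo in the first experiment and all below it in the other. Its difference of 1.89 ± 0.32 had a limma adjusted p of 0.175, the smallest over all genes, shared with AK050756 (1.51 ± 0.26) and AK052744. AK084172 gave 1.50 ± 0.28 and AK031381 1.67 ± 0.33.

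The Sfrs3 probe gave 1.50 ± 0.28. It lies at chromosome 17, 29176941 to 29177000, at lower coordinates than the probe that matches the RefSeq transcript of the same gene, the splicing factor now called Srsf3 (29180193 to 29180252), which gave 0.15 ± 0.29. BC001981, also among the 12, reached the detection mark on 0 of 4 placebo arrays of the MPA experiment, so only a limit can be given. Its MPA level was at least 1.36-fold higher than under placebo, a limit of 1.16-fold without MPA replicate 2. The others were BC020092 (0.96 ± 0.19), 9530079D04Rik (1.33 ± 0.28), Rbm16 (1.57 ± 0.33), AK079215 (1.54 ± 0.33), Ahdc1 (1.34 ± 0.29, with another probe at 0.29) and Mobkl2a (1.15 ± 0.25). Rbm16 was well above background on 3 MPA arrays and 1 placebo array of that experiment, so it too entered through the group where it was high, and the size of its difference is not well measured.

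The unmatched probes stood apart as a class. Their median difference was 0.19, against -0.02 for RefSeq genes, and 10.6% of them had a higher MPA response at the unadjusted threshold, against 2.73%. The shift was largest among dim probes, at 0.32 in the lowest of 4 bins of level and -0.04 in the highest, where RefSeq genes gave 0.05 and -0.06. It kept its order under quantile normalization within each experiment (0.12 and -0.01), median scaling (0.02 and -0.19), normexp (0.60 and -0.11) and in the authors' table (0.11 and -0.02). Among 1312 gene names that had probes of both kinds, the unmatched probe gave the higher difference in 64.7%, by a median of 0.19.

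On single arrays, the median of the unmatched probes relative to placebo was 0.08, 0.02, 0.12 and 0.11 on the MPA arrays and 0.02, 0.05, -0.02 and -0.03 on their placebo arrays. It was -0.06, -0.18, -0.12 and -0.08 on the NET-A arrays and -0.04, -0.08, 0.15 and -0.03 on theirs, where placebo replicate 3 stood above the rest. MPA replicate 2 lay among its placebo arrays, and NET-A replicate 1 lay above placebo replicate 2. Unmatched probes were also poorer in G and C, with a median of 40% against 43.3%, and the gap remained within 4 bins of that content, from 0.25 against -0.06 in the lowest to 0.10 against 0.02 in the highest. The part of probe content, RNA quality and array reading in this shift was not tested.

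**Figure D4:**
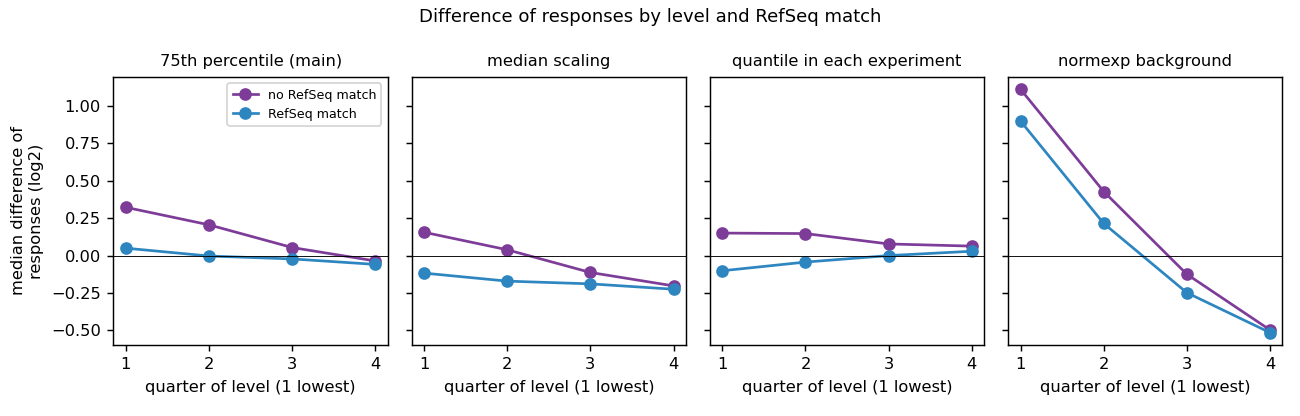
Median difference of responses (y axis, log2) over genes in 4 bins of mean level (x axis, 1 lowest) for probes with and without a RefSeq match, under 4 ways of processing. Unmatched probes lie above RefSeq genes in every bin and panel, by 0.32 against 0.05 in the lowest bin of the 75th percentile scaling, and normexp tilts both curves.

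Opposite responses that held on every array were rare. In 17 of 14513 genes with all 16 values (0.117%) the MPA arrays were all above and the NET-A arrays all below their placebo arrays, and in 0 (0%) the reverse was seen. For comparison, 14 genes (0.0965%) were separated in the same direction by both progestins, and the MPA groups did not overlap in 529 genes (3.65%) and the NET-A groups in 604 (4.16%). Of the 17, 13 carried no RefSeq match. The direction of this count was not stable: with median scaling it was 5 against 13 in reverse, with quantile normalization it was 6 against 1, and the authors' values gave 5 against 1.

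The 6 with the largest value of the smaller of their 2 responses were AK082026, AK084172, AK031381, AK078794 (1.29 ± 0.28), E030024N20Rik (1.31 ± 0.30) and AK039616 (1.23 ± 0.30). AK078794 measured -1.90, -1.37, -1.75 and -1.60 under MPA against -2.31, -2.83, -2.23 and -2.01, and -2.14, -2.52, -2.22 and -2.50 under NET-A against -1.92, -1.70, -1.30 and -2.05. The arrays of each experiment parted by treatment, in opposite directions.

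**Figure D5:**
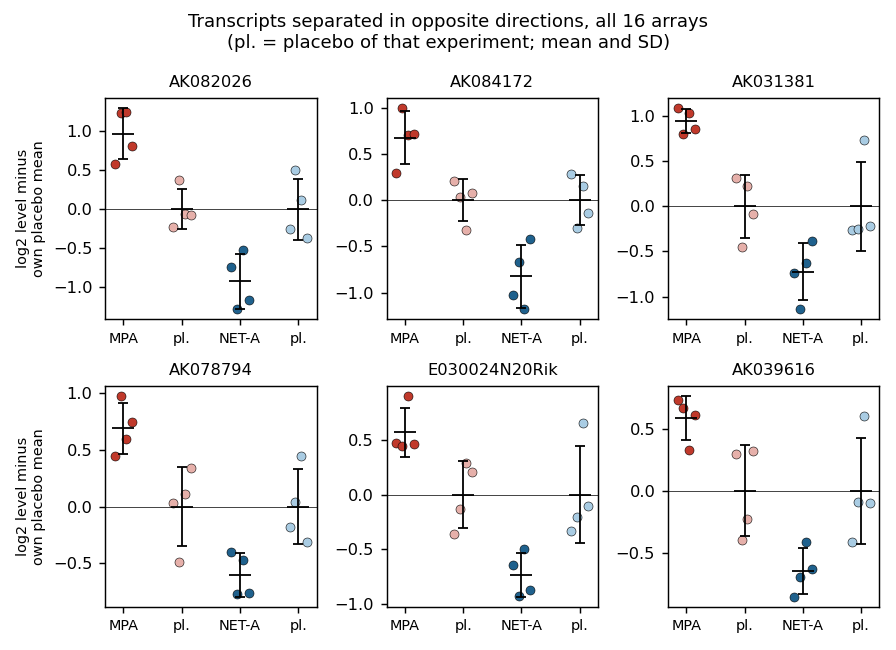
Log2 levels of 6 transcripts on all 16 arrays, each shown minus the mean of its own placebo group (y axis), with bars for the mean and SD of each group. Every MPA array lies above and every NET-A array below its placebo arrays, with mean responses of 0.97 and -0.92 for AK082026.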

How the data were processed

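Aortic RNA of 16 samples, 4 in each of 4 groups, was labelled with Cy3 and hybridised to 1-colour Agilent mouse arrays. Per the file headers, the deposited scanner files hold spot intensity already background-subtracted by Feature Extraction 10.7.1.1 for the MPA experiment and 11.0.1.1 for the NET-A experiment, with probe positions in mm9. The deposited series value table was used only as an alternative: its values behaved as centred log2 intensity, but the authors' exact scaling could not be read from the labels. Groups came from the sample titles, and each placebo was assigned by its letter, M or N.

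Here the processed signal was converted to log2 and each array's 75th percentile was subtracted. Control spots and spots marked as outliers (0.274% of values) were left out, and genes were represented by their brightest probe. Of 41174 probes, 26792 matched a RefSeq transcript (GRCm38.p6), which gave 3212 of them a newer symbol, and 14382 kept the array's name. A single limma model (version 3.58.1, R 4.3.3) was fitted to all 16 arrays, and p-values were adjusted by the Benjamini-Hochberg method. The fit was tested on simulated data.

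Named genes are the 12 highest and 12 lowest differences by the moderated statistic and up to 6 genes per direction separated in opposite directions. To these come the 3 list members with the smallest p and the steroid receptors, among genes with all 16 values. Others are named after their values were seen. Some genes covered by this rule are not reported here. The genes and lists were chosen with earlier results of these data known. Alternatives covered scaling, background correction, filters, blocks, weights, single slides and leaving out each array, and the number of arrays limits the precision.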

Additional observations from a re-analysis of the deposited data

Results flagged for a closer look

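In 32 of 556 groups of 4 arrays over the named genes, 1 array stood far from the other 3, with a gap to its nearest neighbour above the limit for groups of 4 as a share of the group's range. Chance alone gives about 1 in 20 such groups. Placebo replicates 3 and 4 of the NET-A experiment held 5 of these each and placebo replicate 1 of the MPA experiment 4, so the flags were spread over many arrays. Among the placebo arrays of the NET-A experiment, replicate 1 was the highest for Insig1 (0.867) and Krt8 (0.837) and replicate 3 was the highest for AK031381 (0.956), Rbm16 (0.974), Mybl1 (0.938) and Gclc (0.903), with the gap as a share of the range in brackets. There, replicate 3 was the lowest for Sgk1 (0.866) and replicate 4 was the highest for Por (0.849), Cpa3 (0.843), Serping1 (0.839) and Retn (0.927). There, replicate 4 was the lowest for Acan (0.937). Among the placebo arrays of the MPA experiment, replicate 1 was the highest for Rbm16 (0.86) and replicate 1 was the lowest for Mx2 (0.978), Acot1 (0.921) and Cox6b1 (0.981). There, replicate 2 was the lowest for Nr3c2 (0.956) and replicate 3 was the highest for Acta1 (0.917), Cpt1b (0.899) and Cnp (0.876). There, replicate 4 was the highest for Alpl (0.879) and replicate 4 was the lowest for Acly (0.879). Among the NET-A arrays, replicate 1 was the highest for Ahdc1 (0.853) and replicate 1 was the lowest for Ccnb1 (0.864). There, replicate 2 was the highest for Alpl (0.908) and Pcna (0.924) and replicate 2 was the lowest for Aldoc (0.887). There, replicate 3 was the highest for Gclc (0.857). Among the MPA arrays, replicate 1 was the highest for Gclc (0.835) and Ccnb1 (0.834) and replicate 3 was the highest for E030024N20Rik (0.953). There, replicate 4 was the lowest for Ahsg (0.838). Among 156 groups over the median levels of the lists, 5 were likewise marked. Under MPA they were all genes (lowest in replicate 2, 0.874), platelet genes (highest in replicate 3, 0.865) and matrix genes (highest in replicate 1, 0.908). Under the placebo of the MPA experiment they were steroid receptors and coregulators (highest in replicate 1, 0.856) and brown fat genes (lowest in replicate 4, 0.843). 

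In 8 of the named genes every MPA array lay above and every NET-A array below its placebo arrays, and the difference between the responses was 1.89 for AK082026, 1.50 for Sfrs3, 1.50 for AK084172, 1.67 for AK031381, 0.96 for BC020092, 1.29 for AK078794, 1.23 for AK039616 and 1.31 for E030024N20Rik. None of them passed limma's test of the difference after adjustment. All 8 were named for this separation or for their high differences, so the count follows from the choice of genes. Over all genes with no missing value, the same separation was seen in 17 of 14513 (0.117%) and the reverse in 0. The direction of that wider count depended on the scaling.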

How the results depend on the processing

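No gene passed in most alternatives, and limma called 0 under each of the scalings, normexp, the filters, the slide block, the weights, the authors' table and the slide subsets other than slide 1. The exceptions were 1 gene (Sall4) with the replicate block, 29 on slide 1 of the MPA experiment alone, and 0 to 1 when single arrays were left out, the 1 being Fam107a without NET-A replicate 1. Deviations of same-numbered arrays had correlations of -0.24 to 0.25 over the 8 pairs. These values cannot settle whether the replicate numbers pair samples, and the main fit did not pair them. Genes under the unadjusted threshold numbered 4581 after normexp, 1906 with every probe and 1637 on slide 1, against 1053. Genes separated in opposite directions, 17 in the main setting, numbered 7 after quantile normalization, 91 after normexp, 27 with every probe, 6 in the authors' table, 130 on slide 1, 106 on slide 2, 100 on slides 3 and 4, 123 on slide 5 and 19 to 36 without 1 array; fewer arrays separate more easily by construction. The correlation of responses was -0.43 after normexp. Of 1209 list medians 1125 moved by less than the spread, and of 4419 values for the named genes 4359 kept their direction and side, 4 passed the threshold only in the alternative and 56 changed sign. After normexp these were Aldoc 0.64, Rhd 0.67, Slc6a4 0.79, Smtn -0.013, Egfl7 -0.10, Flt1 -0.12, Serpind1 0.55, F5 0.52, Hc 0.041, Nnat 0.71, Cox6b1 -0.16, Cox4i1 -0.31, Ndufb5 -0.11, Chgb 1.00, Krt18 -0.037, Agt 0.45, Avpr1a 0.91 and Esr1 0.12. On slide 1 they were H2-Ab1 0.31 and Pgr -0.023, on slide 2 Cd8a -0.72, Cd3d -0.35, Cd6 -0.52, Actg2 0.029, Krt18 -0.20, Cat 0.0085 and Esr1 0.17, on slides 3 and 4 Cma1 0.13, Cpa3 0.51, H2-Aa 0.12, H2-DMa 0.099, H2-Ab1 0.33 and Msln -0.49 and on slide 5 Cd8a -0.26, Cd3d -0.22, Egfl7 -0.043, Thrsp -0.37, Acly -0.12, Cpt1b -0.39, Cox6b1 -0.29, Cox4i1 -0.048, Ndufb5 -0.068 and Esr1 0.39. Pgr gave -0.051 with median scaling, -0.048 with quantile normalization and -0.048 in the authors' table, and Cpa3 0.019 with array weights. Leaving out single arrays, the 6 genes that changed sign ranged from -0.98 to 0.14 for Cpa3, from -0.76 to 0.0396 for H2-DMa, from -0.66 to 0.26 for H2-Ab1, from -0.022 to 0.39 for Krt18, from -0.18 to 0.34 for Pgr and from -0.31 to 0.0284 for Esr1. The cause of these changes was not tested. Signals near background limit the dimmest genes, since fewer spots were well above it in the MPA experiment.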
